A study of Mus musculus with 2 samples.

Results

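The 9 genes described here encode proteins that act within the first steps of T cell receptor signalling: Lck, Zap70, Lat, Lcp2, Themis, Cblb, Malt1, Ptpn22 and Ptpn6. They were chosen by symbol, and all 9 were found among the 55357 genes counted in cells from infarcted mouse hearts. The anti-PD1 library came from wild-type (WT) mice that had myocardial infarction (MI) and received an antibody to PD1, the inhibitory receptor that Pdcd1 encodes. The anti-IgG library came from WT mice with the same infarction and an anti-IgG injection. Hearts were taken at day 7 after MI, so both groups carry the infarction. Age, sex and the number of pooled animals are not given in the labels. Each group was 1 library, so cells were not treated as replicates, no test was made and no difference has a replicate check. The 95% intervals below cover counting error only and treat each UMI (unique molecular identifier, standing for 1 captured RNA molecule) as drawn singly.

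When a T cell receptor binds its ligand, the kinase Lck phosphorylates the CD3 chains, and the kinase Zap70 docks there. Zap70 then phosphorylates the membrane adaptor Lat and the cytosolic adaptor Lcp2 (also known as SLP-76), which together assemble the enzymes of calcium, Ras and NF-kappaB signalling. Themis binds this assembly and is known for its part in thymic selection. Malt1 is the protease and scaffold of a complex with Bcl10 that leads to NF-kappaB. Cblb is a ubiquitin ligase, Ptpn22 a phosphatase that acts on Lck and Zap70, and Ptpn6 (SHP-1) a phosphatase recruited by inhibitory receptors. These last 3 are known as brakes on the response.

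The anti-PD1 library held 6026 barcodes and 29046341 UMIs, and the anti-IgG library held 4380 barcodes and 22806806 UMIs. After filters, 5835 anti-PD1 cells with a median of 3858 UMIs and 4309 anti-IgG cells with a median of 4079 UMIs were kept. The libraries shared 46 barcode sequences among the kept cells. The series text speaks of sorted T cells, whereas the protocol in the labels describes no sort. Cells with a UMI of Cd3e, Cd3d or Cd3g and no markers of other cell types, called Cd3 cells here, numbered 5060 (86.7%) in the anti-PD1 library and 3805 (88.3%) in the anti-IgG library. Sets of Cd3 cells, called gates, were then drawn by marker UMIs. In the anti-PD1 library 1192 cells were in the CD8 gate, 298 in the Foxp3 gate (named for the regulatory T cell factor), 175 in the NK-marker gate, 749 in the gamma-delta gate and 1152 in the CD4 gate. Anti-IgG cells numbered 850 in the CD8 gate, 248 in the Foxp3 gate, 86 in the NK-marker gate, 371 in the gamma-delta gate and 1245 in the CD4 gate. Some Cd3 cells entered no gate, and values for Cd3 cells include them. Those without Cd4 and Cd8 UMIs numbered 1325 (26.2%, median 2988 UMIs) in anti-PD1 and 826 (21.7%, median 3199.5 UMIs) in anti-IgG. Those with both numbered 180 in anti-PD1 and 183 in anti-IgG. Of the NK-marker cells, which needed no Cd3 UMI to enter, 93.7% in the anti-PD1 and 95.3% in the anti-IgG library had one, so that gate is named by its receptors and not as NK cells.

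Levels are UMIs of a gene per 1000000 UMIs of the same cells (CPM). Outside T cells, Zap70 and Themis had 0 UMIs in stromal cells of both libraries (fibroblast or endothelial markers and no Cd3 UMI; 62 anti-PD1 and 82 anti-IgG cells). Ptpn6 stood at 77.2 CPM in anti-PD1 and 98 CPM in anti-IgG stromal cells, Cblb at 51.5 CPM in anti-PD1 and 38.6 CPM in anti-IgG, and Malt1 at 31.7 CPM in anti-PD1 and 49.7 CPM in anti-IgG. The Ptpn6 UMIs lay in few stromal cells, 7 of 62 in the anti-PD1 library (at most 12 UMIs in a cell) and 9 of 82 in the anti-IgG library (at most 14). Macrophage-marker cells without Cd3 UMIs held Lcp2 at 150 CPM in the anti-PD1 and 83.7 CPM in the anti-IgG library. In Cd3 cells, the 6 macrophage markers summed to 19.7 CPM in the anti-PD1 and 15.6 CPM in the anti-IgG library, and the 3 B cell markers to 18.0 CPM in anti-PD1 and 17.1 CPM in anti-IgG, with 0 of the 3 at 0 in anti-PD1 and 1 at 0 in anti-IgG. The 6 endothelial markers summed to 67.3 CPM in anti-PD1 and 82.1 CPM in anti-IgG Cd3 cells, and 0 macrophage or endothelial markers were at 0. The 6 fibroblast markers summed to 2.93 CPM in anti-PD1 and 3.67 CPM in anti-IgG Cd3 cells, with 1 of them at 0 in each library. Their part in the results was not tested.

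Lck and Zap70 differed from the CD4 gate in opposite directions in the gamma-delta gate. In Cd3 cells Cblb had the highest and Themis the lowest ratio between the libraries, though Themis fell short of a 1.5-fold difference. Promoter sequences of these 4 members are shown. Each runs from 250 bases before to 50 bases after the first start listed in the RefSeq table of build GRCm38.p6, 5′ to 3′ on the gene's strand, with motif matches in capitals. The windows lie at chr4:129573592-129573891 (minus strand) for Lck, chr1:36761548-36761847 (plus strand) for Zap70, chr10:28668110-28668409 (plus strand) for Themis and chr16:52031299-52031598 (plus strand) for Cblb.
Lck: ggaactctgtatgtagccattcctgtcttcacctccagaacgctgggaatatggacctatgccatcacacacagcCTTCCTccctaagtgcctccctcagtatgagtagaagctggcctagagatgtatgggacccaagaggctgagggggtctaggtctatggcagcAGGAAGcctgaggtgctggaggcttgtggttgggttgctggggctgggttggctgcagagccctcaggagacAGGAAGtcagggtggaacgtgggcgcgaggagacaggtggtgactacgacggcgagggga
Zap70: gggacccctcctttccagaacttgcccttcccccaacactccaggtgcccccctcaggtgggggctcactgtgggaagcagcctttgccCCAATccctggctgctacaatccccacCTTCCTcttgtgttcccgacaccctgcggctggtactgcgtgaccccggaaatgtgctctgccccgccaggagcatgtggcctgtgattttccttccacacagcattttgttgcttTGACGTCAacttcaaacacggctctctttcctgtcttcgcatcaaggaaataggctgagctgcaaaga
Themis: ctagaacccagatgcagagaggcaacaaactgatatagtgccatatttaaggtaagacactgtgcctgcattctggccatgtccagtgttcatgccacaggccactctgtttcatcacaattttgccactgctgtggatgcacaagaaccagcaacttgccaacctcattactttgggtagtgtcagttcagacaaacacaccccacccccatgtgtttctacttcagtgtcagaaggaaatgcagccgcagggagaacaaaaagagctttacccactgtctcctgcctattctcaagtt
Cblb: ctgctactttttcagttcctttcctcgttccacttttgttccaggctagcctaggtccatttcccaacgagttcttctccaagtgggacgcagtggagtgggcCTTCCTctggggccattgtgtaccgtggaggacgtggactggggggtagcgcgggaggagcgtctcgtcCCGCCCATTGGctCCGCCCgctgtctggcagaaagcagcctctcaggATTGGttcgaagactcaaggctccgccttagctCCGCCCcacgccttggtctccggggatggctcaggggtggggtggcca
The 6 motifs searched on both strands were TGACGTCA (cAMP response element), AAAGGTCA (the element of the NR4A receptors), TGANTCA (AP-1), GGGCGG (GC box), CCAAT and AGGAAG (ETS core). Matches that abut or overlap, such as a GC box and a CCAAT box of Cblb, share 1 run of capitals. The Lck window held 3 ETS cores and no other match. The Zap70 window held 1 cAMP response element, present in 1.79% of the 32851 promoters in the table, with 1 CCAAT and 1 ETS match. The Cblb window held 3 GC boxes, 2 CCAAT boxes and 1 ETS core. GC boxes were found in 35.7%, CCAAT in 37.4% and ETS cores in 35.4% of all promoters, and the NR4A element in 1.51% and AP-1 in 7.81%. The Themis window held none of the 6 motifs. Lck, Zap70 and Themis have further listed starts, whose windows are not shown. Matches there included a GC box for Lck and an NR4A element for Zap70. These matches describe letters in the window and do not show that a factor binds.

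In the gamma-delta gate the kinases Lck and Zap70 lay on opposite sides of their levels in the other 4 gates. In the anti-PD1 library Lck stood at 659 CPM in the CD8 gate, 574 CPM in the Foxp3 gate, 563 CPM in the NK-marker gate, 147 CPM in the gamma-delta gate and 606 CPM in the CD4 gate. In the anti-IgG library it stood at 613 CPM in the CD8 gate, 535 CPM in the Foxp3 gate, 599 CPM in the NK-marker gate, 191 CPM in the gamma-delta gate and 588 CPM in the CD4 gate. The gamma-delta gate was far below the other 4 gates in both libraries, and those 4 lay close together. Among them, the step between neighbours in the order of levels exceeded counting error for CD8 over CD4 in the anti-PD1 library and for CD4 over Foxp3 in the anti-IgG library. Zap70 was instead highest in the gamma-delta gate in both libraries. Anti-PD1 cells had Zap70 at 386 CPM in the gamma-delta gate, 224 CPM in the NK-marker gate, 212 CPM in the Foxp3 gate, 189.7 CPM in the CD8 gate and 208 CPM in the CD4 gate. Anti-IgG cells had 382 CPM in the gamma-delta gate, 223 CPM in the NK-marker gate, 187 CPM in the Foxp3 gate, 176 CPM in the CD8 gate and 191 CPM in the CD4 gate. Below the gamma-delta gate, neighbouring gates did not differ beyond counting error, except CD4 over CD8 in the anti-PD1 library.

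**Figure D1:**
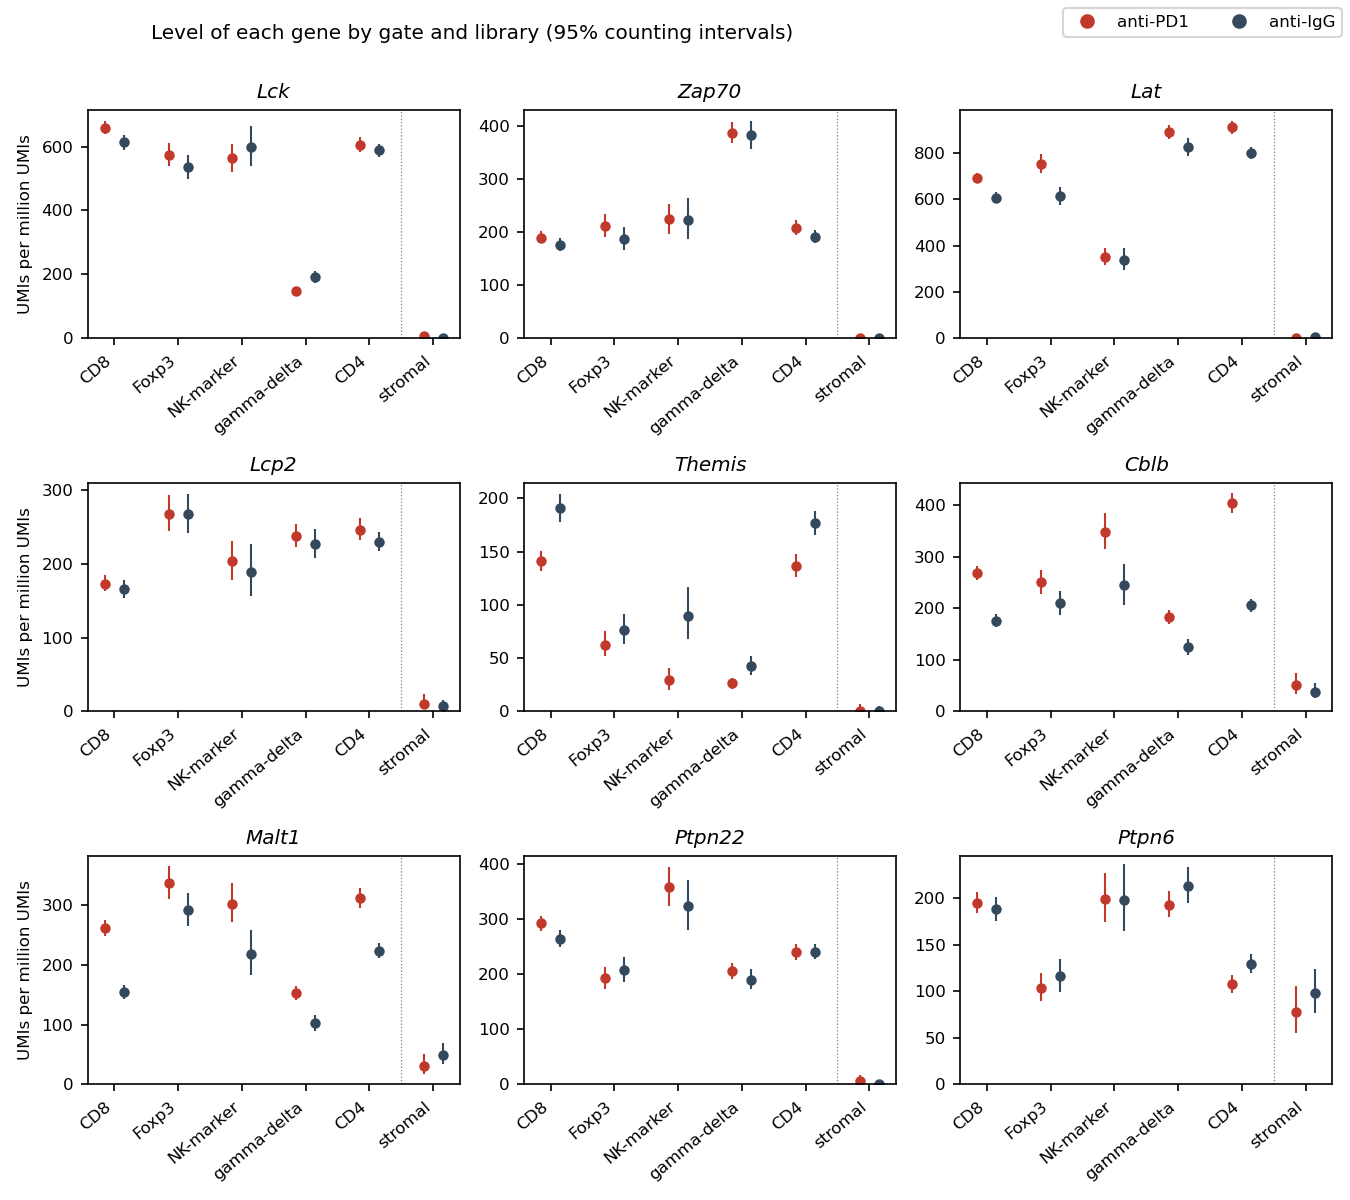
UMIs per 1000000 UMIs (y axis) of each of the 9 genes in the 5 gates and in stromal cells (x axis), with anti-PD1 in red left of anti-IgG in dark blue; bars are 95% counting intervals. Among the 5 gates, Lck is lowest and Zap70 highest in the gamma-delta gate in both libraries, and Lat is lowest in the NK-marker gate.

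Against the CD4 gate of the same library, a gene was called when its ratio was at least 1.5 or at most 1/1.5, the interval excluded 1 and at least 50 UMIs were summed, in both libraries and in the same direction. In the gamma-delta gate 6 of the 9 genes were called, where 15.4% of the 8704 genes tested were. Of the 6, 2 were higher (9.97% of all genes) and 4 lower (5.47% of all genes). Lck in the gamma-delta gate was 0.243 (0.222 to 0.266) of its CD4 level in the anti-PD1 library and 0.324 (0.292 to 0.359) in the anti-IgG library. Zap70 was 1.86-fold (1.71 to 2.02) higher than in the CD4 gate in the anti-PD1 library and 2.00-fold (1.82 to 2.19) in the anti-IgG library. Ptpn6 was also higher, 1.80-fold in the anti-PD1 and 1.64-fold in the anti-IgG library. Themis was 0.192 of its CD4 level in the anti-PD1 and 0.240 in the anti-IgG library, Cblb 0.452 in anti-PD1 and 0.605 in anti-IgG, and Malt1 0.490 in anti-PD1 and 0.459 in anti-IgG. The adaptors Lat, at 0.977 in anti-PD1 and 1.03 in anti-IgG, and Lcp2, at 0.965 in anti-PD1 and 0.988 in anti-IgG, stood near the CD4 level. Ptpn22 was 0.853 of it in anti-PD1 and 0.791 in anti-IgG, short of the rule.

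Shares of cells with a UMI put the gamma-delta and CD4 gates in the same order as the levels did, for both kinases. Lck was seen in 22.3% of anti-PD1 gamma-delta cells (median 4452 UMIs) and 27.0% of anti-IgG ones (4805 UMIs), against 84.3% of anti-PD1 CD4-gate cells (3550.5 UMIs) and 84.8% of anti-IgG ones (3734 UMIs). In stromal cells, which should lack it, Lck was seen in 6.45% of anti-PD1 cells (median 5215 UMIs) and 0 of 82 anti-IgG cells (5826 UMIs), the last allowing a share of up to 3.66%. With every cell thinned to 1000 UMIs, 8.17% of anti-PD1 and 8.89% of anti-IgG gamma-delta cells had an Lck UMI, against 45.6% of anti-PD1 and 42.6% of anti-IgG CD4-gate cells. Thinned stromal cells with an Lck or Zap70 UMI numbered 0 of 54 in the anti-PD1 and 0 of 68 in the anti-IgG library. Thinning left out, for their low depth, 2 gamma-delta, 6 CD4-gate and 8 stromal cells of the anti-PD1 library, and 0 gamma-delta, 2 CD4-gate and 14 stromal cells of the anti-IgG library. Zap70 was seen in 80.1% of anti-PD1 and 83.6% of anti-IgG gamma-delta cells. After thinning the Zap70 shares were 35.6% in anti-PD1 and 28.3% in anti-IgG gamma-delta cells, against 18.6% in anti-PD1 and 17.2% in anti-IgG CD4-gate cells.

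Within the gamma-delta gate the low Lck level lay in cells with UMIs of the receptor segments Trdv4 or Trgv6, a split chosen after its values were seen. These cells numbered 681 of 749 in the anti-PD1 and 323 of 371 in the anti-IgG library. In anti-PD1 cells Lck stood at 108 CPM in them and 468 CPM in the other gamma-delta cells, a ratio of 0.232 (0.195 to 0.276). In anti-IgG cells it stood at 129 CPM in them and 475 CPM in the others, a ratio of 0.273 (0.224 to 0.332). Zap70 was 1.69-fold higher in the Trdv4 or Trgv6 cells of the anti-PD1 and 1.77-fold in those of the anti-IgG library. Lat was 1.57-fold higher in them in the anti-PD1 and 1.49-fold in the anti-IgG library. Themis was 0.370 of the level in the other cells in the anti-PD1 and 0.202 in the anti-IgG library. The other gamma-delta cells were 68 anti-PD1 and 48 anti-IgG cells, so their levels rest on few cells.

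The adaptors split by gate in another way. Lat in anti-PD1 cells stood at 352 CPM in the NK-marker gate, 691 CPM in the CD8 gate, 753 CPM in the Foxp3 gate, 888 CPM in the gamma-delta gate and 909 CPM in the CD4 gate. Lat in anti-IgG cells stood at 339 CPM in the NK-marker gate, 606 CPM in the CD8 gate, 613 CPM in the Foxp3 gate, 824 CPM in the gamma-delta gate and 798 CPM in the CD4 gate. The NK-marker gate was lowest in both libraries, and the gamma-delta and CD4 gates did not differ beyond counting error. In the NK-marker gate 3 of the 9 genes were called against CD4, where 6.76% of 7828 genes tested were: 1 higher (3.82% of all genes) and 2 lower (2.94% of all genes). Lat was 0.387 (0.348 to 0.429) of its CD4 level in the anti-PD1 and 0.425 (0.368 to 0.488) in the anti-IgG library. Themis was 0.213 of its CD4 level in anti-PD1 and 0.510 in anti-IgG NK-marker cells, and Ptpn6 was higher, 1.86-fold in anti-PD1 and 1.53-fold in anti-IgG. Of 50 other genes of the pathway tested, 5 were called higher and 8 lower in the NK-marker gate. Plcg1, the phospholipase that docks on Lat, and Grap2, the adaptor that links Lat to Lcp2, were among the 8.

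Lcp2 varied less by gate. In anti-PD1 cells its level was 173 CPM in the CD8 gate, 268 CPM in the Foxp3 gate, 204 CPM in the NK-marker gate, 238 CPM in the gamma-delta gate and 247 CPM in the CD4 gate. In anti-IgG cells it was 166 CPM in the CD8 gate, 268 CPM in the Foxp3 gate, 189.6 CPM in the NK-marker gate, 227 CPM in the gamma-delta gate and 229.9 CPM in the CD4 gate. The Foxp3 gate was highest and the CD8 gate lowest in both libraries, and no gate was called against CD4. Foxp3 and CD4 did not differ beyond counting error in the anti-PD1 library. Lcp2 in the CD8 gate was 0.703 (0.645 to 0.766) of its CD4 level in the anti-PD1 and 0.722 (0.658 to 0.793) in the anti-IgG library.

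Themis had the widest range over gates of the 9 genes. Anti-PD1 cells held it at 141 CPM in the CD8 gate, 62.7 CPM in the Foxp3 gate, 29.1 CPM in the NK-marker gate, 26.3 CPM in the gamma-delta gate and 137 CPM in the CD4 gate. Anti-IgG cells held it at 191 CPM in the CD8 gate, 76.6 CPM in the Foxp3 gate, 90.0 CPM in the NK-marker gate, 42.3 CPM in the gamma-delta gate and 177 CPM in the CD4 gate. The CD8 and CD4 gates did not differ beyond counting error and lay above the other 3. In the Foxp3 gate Themis was 0.458 (0.372 to 0.560) of its CD4 level in the anti-PD1 and 0.434 (0.355 to 0.527) in the anti-IgG library. It was the 1 member called in the Foxp3 gate, where 10.3% of 8211 genes tested were called, 7.81% higher and 2.52% lower. In the CD8 gate 0 members were called, where 5.44% of 8987 genes tested were, 2.13% higher and 3.32% lower.

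**Figure D2:**
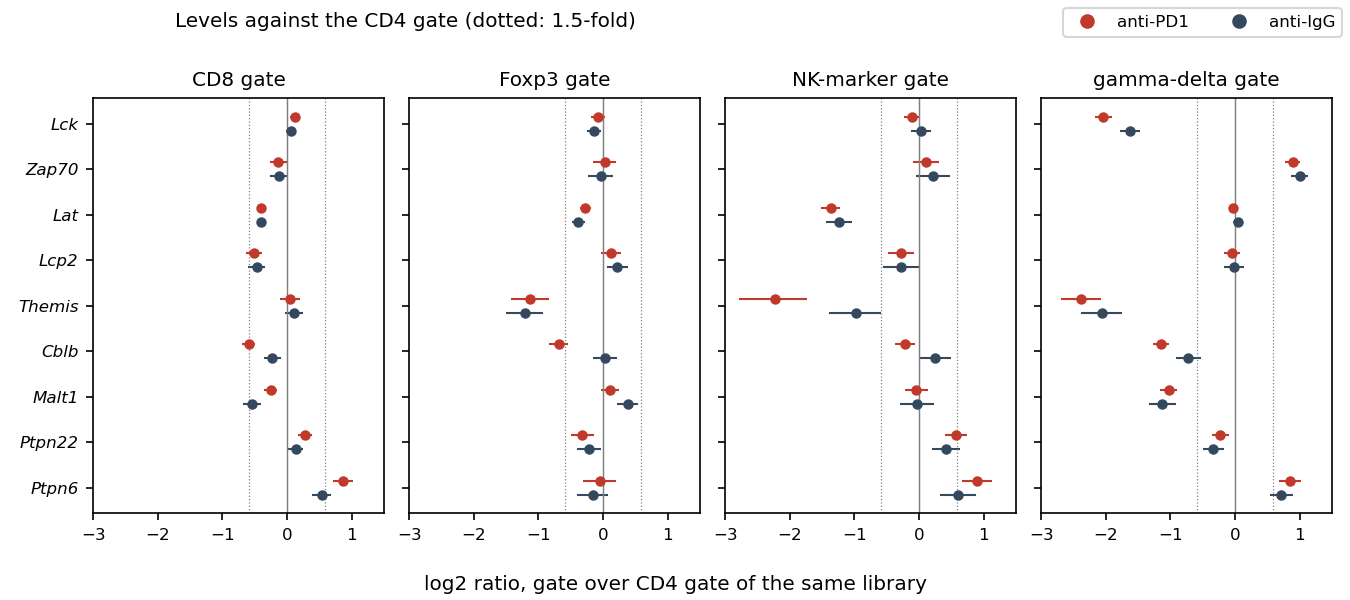
Log2 ratio of each gene's level in a gate over the CD4 gate of the same library (x axis; one panel per gate), with anti-PD1 in red above anti-IgG in dark blue; bars are 95% counting intervals and dotted lines mark 1.5-fold. In the gamma-delta panel Themis and Lck lie farthest left and Zap70 and Ptpn6 farthest right, and the libraries lie on the same side for the 10 called pairs of gate and gene, as the call required.

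Malt1 was highest in the Foxp3 gate and lowest in the gamma-delta gate. Anti-PD1 levels were 337 CPM in the Foxp3 gate, 302 CPM in the NK-marker gate, 261 CPM in the CD8 gate, 152 CPM in the gamma-delta gate and 311 CPM in the CD4 gate. Anti-IgG levels were 291 CPM in the Foxp3 gate, 219 CPM in the NK-marker gate, 154 CPM in the CD8 gate, 102 CPM in the gamma-delta gate and 223 CPM in the CD4 gate. Foxp3 over CD4 was 1.08-fold (0.984 to 1.19) in the anti-PD1 and 1.30-fold (1.17 to 1.46) in the anti-IgG library. The difference between these 2 ratios was not tested.

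The brakes did not share 1 pattern over the gates. Cblb in anti-PD1 cells stood at 182 CPM in the gamma-delta gate, 268 CPM in the CD8 gate, 251 CPM in the Foxp3 gate, 348 CPM in the NK-marker gate and 404 CPM in the CD4 gate. Cblb in anti-IgG cells stood at 124 CPM in the gamma-delta gate, 175 CPM in the CD8 gate, 209.5 CPM in the Foxp3 gate, 244 CPM in the NK-marker gate and 205 CPM in the CD4 gate. The gamma-delta gate was lowest in both libraries. The CD4 gate ranked highest in the anti-PD1 library, with the CD8 gate at 0.663 and the Foxp3 gate at 0.621 of it, whereas in the anti-IgG library the NK-marker, Foxp3 and CD4 gates did not differ, neighbour from neighbour, beyond counting error.

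Ptpn22 was highest in the NK-marker gate, at 358 CPM in anti-PD1 and 323 CPM in anti-IgG cells. The CD8 gate followed at 292 CPM in anti-PD1 and 264 CPM in anti-IgG cells, and the CD4 gate stood at 240.2 CPM in anti-PD1 and 240.6 CPM in anti-IgG cells. Both steps exceeded counting error in both libraries. The gamma-delta gate, at 205 CPM in anti-PD1 and 190.2 CPM in anti-IgG cells, and the Foxp3 gate, at 192 CPM in anti-PD1 and 208 CPM in anti-IgG cells, did not differ from each other beyond it. No gate was called for Ptpn22.

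Ptpn6 formed a high and a low set of gates. Its level was 194 CPM in anti-PD1 and 188 CPM in anti-IgG cells of the CD8 gate, 199 CPM in anti-PD1 and 198 CPM in anti-IgG cells of the NK-marker gate, and 193 CPM in anti-PD1 and 213 CPM in anti-IgG cells of the gamma-delta gate. These 3 gates did not differ, neighbour from neighbour, beyond counting error. The Foxp3 gate held 103 CPM in anti-PD1 and 116 CPM in anti-IgG cells, and the CD4 gate 107 CPM in anti-PD1 and 129.5 CPM in anti-IgG cells. Ptpn6 in the CD8 gate exceeded CD4 by 1.82-fold (1.63 to 2.02) in the anti-PD1 and by 1.45-fold (1.31 to 1.61) in the anti-IgG library, and only the anti-PD1 ratio passed 1.5-fold. B-marker cells without Cd3 UMIs held more Ptpn6 than the 5 gates, at 558 CPM in the anti-PD1 and 452 CPM in the anti-IgG library. Macrophage-marker cells without Cd3 UMIs also held more than the 5 gates, at 304 CPM in the anti-PD1 and 325 CPM in the anti-IgG library.

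Cells with a UMI of Pdcd1, the gene of the receptor the antibody binds, were compared with Pdcd1-negative cells of the same gate. Ptpn22 was higher in Pdcd1-positive cells, 1.63-fold (1.42 to 1.87) in the anti-PD1 and 1.77-fold (1.56 to 2.00) in the anti-IgG CD4 gate. In the CD8 gate it was 1.54-fold higher in the anti-PD1 and 1.48-fold in the anti-IgG library. Lcp2 was higher in Pdcd1-positive CD4-gate cells by 1.47-fold in the anti-PD1 and 1.37-fold in the anti-IgG library. In these 2 gates Zap70 and Malt1 were higher in all 4 comparisons too, by 1.20-fold to 1.497-fold, and Lat ratios lay between 0.916 and 1.01, each with an interval that included 1. The Foxp3 gate had other ratios. Lat there was lower in Pdcd1-positive cells, at 0.8002 (0.719 to 0.891) in the anti-PD1 and 0.753 (0.660 to 0.858) in the anti-IgG library. Lcp2 there was at 0.892 (0.743 to 1.07) in the anti-PD1 and 1.47 (1.20 to 1.80) in the anti-IgG library. Intervals of Zap70 and Ptpn22 included 1 in the Foxp3 gate of both libraries. Pdcd1-positive cells were deeper, with medians of 4107 UMIs in positive and 3459 UMIs in negative anti-PD1 CD4-gate cells, and of 6808 UMIs in positive and 3513 UMIs in negative anti-PD1 Foxp3-gate cells. The part of depth in these differences was not tested.

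**Figure D3:**
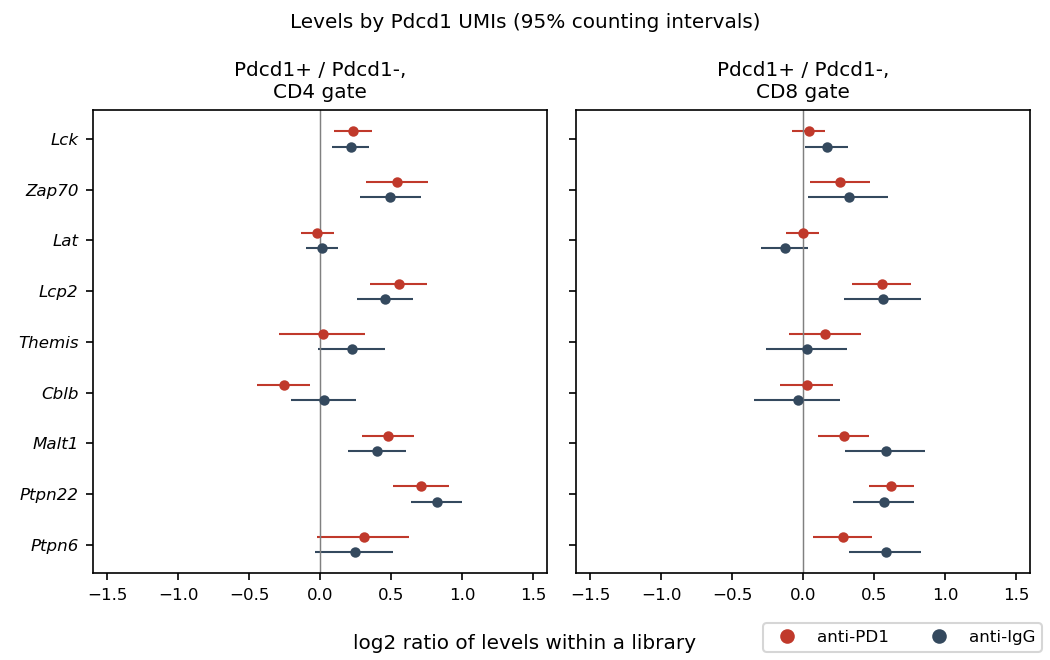
Log2 ratio (x axis) of each gene's level in Pdcd1-positive over Pdcd1-negative cells of the CD4 and CD8 gates (panels), anti-PD1 in red above anti-IgG in dark blue, with 95% counting intervals. Ptpn22 and Lcp2 lie right of 0 in both panels.

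The study's comparison was between antibodies. In Cd3 cells 1 of the 9 genes, Cblb, passed the rule of 1.5-fold with an interval excluding 1, where 14.8% of 12085 genes tested did so. Cblb stood at 303 CPM in the anti-PD1 and 192 CPM in the anti-IgG library, a ratio of 1.58 (1.52 to 1.65). In the CD4 gate it stood at 404 CPM in anti-PD1 and 205 CPM in anti-IgG cells, 1.97-fold higher (1.82 to 2.12), and it was the 1 member called there, where 14% of 9274 genes were called. A Cblb UMI was seen in 68.2% of anti-PD1 and 49.96% of anti-IgG CD4-gate cells, and after thinning in 32.5% of anti-PD1 and 18.2% of anti-IgG cells. Thinned stromal cells gave 5.56% in the anti-PD1 and 5.88% in the anti-IgG library. In the CD8 gate the Cblb ratio was 1.53 (1.40 to 1.67), a call kept in 4 of 8 alternatives and lost with thinned cells (1.42). It was 1.47 (1.28 to 1.69) in the gamma-delta gate and 1.43 (1.18 to 1.73) in the NK-marker gate, both short of the rule. The Foxp3 gate had the smallest ratio of the 5 gates, 1.20 (1.03 to 1.38), and 0 members called there, where 11.9% of 7097 genes were. With thinned cells the Foxp3-gate ratio was 0.782, on the other side of 1.

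Cblb was compared between the libraries on each side of the splits by Pdcd1 and by Nr4a1. Pdcd1-positive CD4-gate cells had a ratio of 1.67 (1.39 to 2.01), and Pdcd1-negative ones 2.03 (1.87 to 2.21). In the CD8 gate the ratios were 1.59 (1.27 to 2.00) in Pdcd1-positive and 1.52 (1.38 to 1.67) in Pdcd1-negative cells. The Foxp3 gate had 1.38 (1.13 to 1.70) in Pdcd1-positive cells and 1.03 (0.831 to 1.28), an interval that includes 1, in Pdcd1-negative cells. A UMI of Nr4a1, an early gene of receptor stimulation that also responds to cell handling, was present in 59.9% of anti-PD1 and 20.8% of anti-IgG Cd3 cells. Outside T cells, an Nr4a1 UMI was present in 30.6% of anti-PD1 and 14.6% of anti-IgG stromal cells. In macrophage-marker cells the shares were 46.2% in anti-PD1 and 21.3% in anti-IgG, and in B-marker cells 52.3% in anti-PD1 and 26.3% in anti-IgG. Within Nr4a1-positive Cd3 cells the Cblb ratio was 1.44 (1.35 to 1.55), and within Nr4a1-negative cells 1.66 (1.57 to 1.76). Outside T cells, Cblb had a ratio of 1.67 (0.944 to 3.10) in B-marker cells and 1.33 (0.750 to 2.36) in stromal cells, with intervals that include 1. Macrophage-marker cells held Cblb at 43.0 CPM (25 UMIs) in anti-PD1 and 19.3 CPM (6 UMIs) in anti-IgG, too few UMIs for a call.

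Malt1 was at 256 CPM in anti-PD1 and 188 CPM in anti-IgG Cd3 cells, a ratio of 1.36 (1.30 to 1.42) that did not pass the rule. The CD8 gate was the 1 T cell gate where it passed, at 261 CPM in anti-PD1 and 154 CPM in anti-IgG cells, a ratio of 1.69 (1.55 to 1.86). The gamma-delta gate was just short of the rule at 1.49 (1.27 to 1.74) and passed it in 5 of 8 alternatives, and the CD4 gate, at 1.39 (1.29 to 1.51), passed it in 2 of 8. In the CD8 gate 2 of the 9 members were called, Cblb and Malt1, where 12.4% of 9273 genes were. Malt1 was also called in B-marker cells, 1.87-fold higher (1.29 to 2.75) on 123 anti-PD1 and 39 anti-IgG UMIs. The share of all genes called in B-marker cells was not counted. The Malt1 ratio was 1.27 (1.19 to 1.36) in Nr4a1-positive and 1.20 (1.12 to 1.28) in Nr4a1-negative Cd3 cells, both below the undivided value. Within the anti-PD1 library Malt1 was 1.30-fold higher in Nr4a1-positive than in Nr4a1-negative Cd3 cells, and within the anti-IgG library 1.23-fold.

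Themis had the lowest ratio between libraries of the 9 members. It stood at 97.9 CPM in anti-PD1 and 147 CPM in anti-IgG Cd3 cells, a ratio of 0.668 (0.631 to 0.707), just outside the limit of 0.667. The share of Cd3 cells with a UMI was 30.2% in the anti-PD1 and 43.1% in the anti-IgG library, and 9.58% in anti-PD1 and 14.2% in anti-IgG after thinning. By gate the ratio was 0.775 in CD4, 0.738 in CD8 and 0.818 (0.626 to 1.07) in Foxp3 cells. In the NK-marker gate Themis was called, at 0.323 (0.204 to 0.506) on 33 anti-PD1 and 56 anti-IgG UMIs, the 1 member of 9 called there, where 15.1% of 5007 genes were. That gate also differed in its cells, since 6.86% of its anti-PD1 and 18.6% of its anti-IgG cells had a Cd4 UMI, and the part of this in the result was not tested. In the gamma-delta gate Themis was again the 1 member called, at 0.620 (0.465 to 0.829) on 105 anti-PD1 and 93 anti-IgG UMIs, where 12.4% of 8510 genes were called. In that gate 7.74% of anti-PD1 and 16.7% of anti-IgG cells had a Cd4 UMI. The Themis ratio there was 0.890 (0.610 to 1.31) in cells with Trdv4 or Trgv6 and 0.486 (0.289 to 0.799) in the others. With cells thinned to 1000 UMIs the gamma-delta ratio was 0.993 and was not called.

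The other 6 members had ratios between 0.945 and 1.12 in Cd3 cells. Lat had 777 CPM in the anti-PD1 and 697 CPM in the anti-IgG library (ratio 1.12, 1.09 to 1.14), and Zap70 had 229 CPM in anti-PD1 and 207 CPM in anti-IgG (1.11, 1.06 to 1.15). Ptpn22 had 249.6 CPM in anti-PD1 and 233 CPM in anti-IgG (1.07, 1.03 to 1.11), and Lcp2 had 214 CPM in anti-PD1 and 209 CPM in anti-IgG (1.02, 0.980 to 1.07). Lck had 517 CPM in anti-PD1 and 531 CPM in anti-IgG (0.974, 0.948 to 1.00), and Ptpn6 had 151 CPM in anti-PD1 and 159.8 CPM in anti-IgG (0.945, 0.900 to 0.994). By gate the Lck ratio was 1.03 in CD4, 1.07 in CD8, 1.07 in Foxp3, 0.940 in NK-marker and 0.773 in gamma-delta cells. The gamma-delta gate, where Lck was lowest, held 14.8% of anti-PD1 and 9.75% of anti-IgG Cd3 cells. In Cd3 cells 2 of 9 alternatives put the Lck ratio on the other side of 1. Of these 6 members, none passed the rule in the 5 gates, while Lcp2 passed it in macrophage-marker cells, at 1.79 (1.14 to 2.89) on 87 anti-PD1 and 26 anti-IgG UMIs. The share of all genes called in macrophage-marker cells was not counted. The median log2 ratio was 0.10 over the 9 members and -0.11 over all 12085 genes. Relative to that median gene, Lck was at 1.05 and Ptpn6 at 1.02, on the other side of 1.

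**Figure D4:**
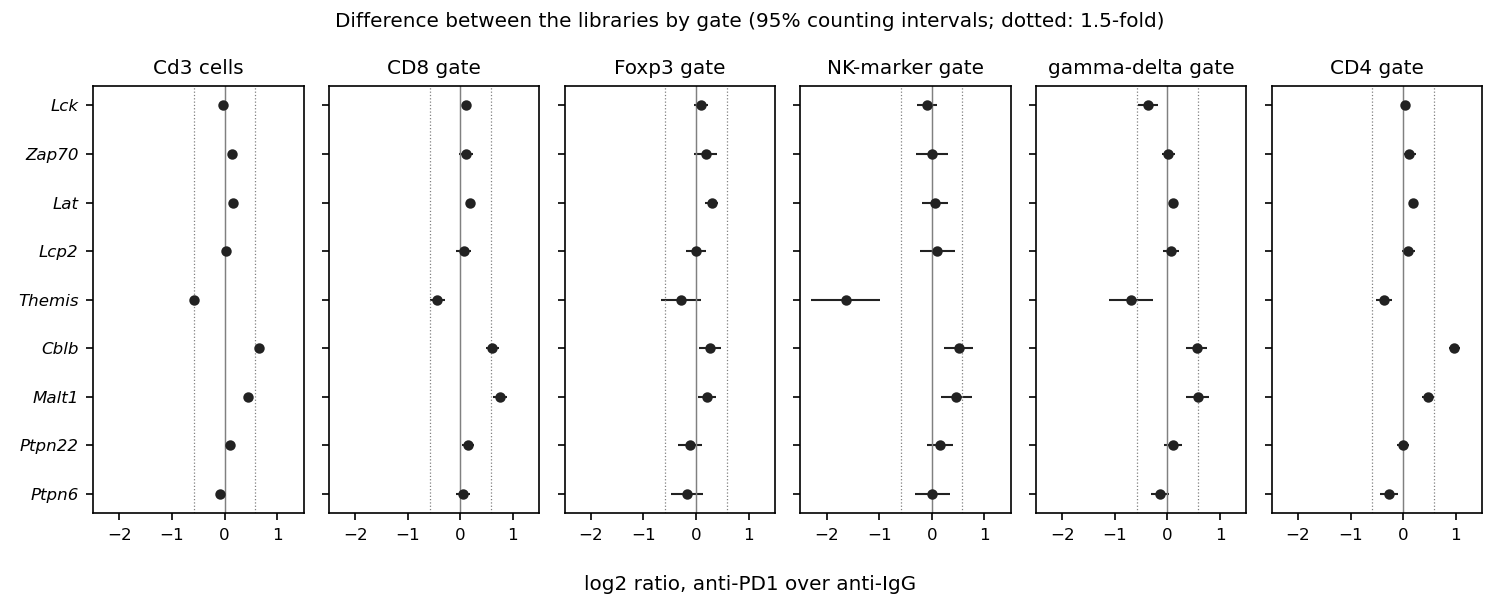
Log2 ratio of anti-PD1 over anti-IgG levels (x axis) for each gene in Cd3 cells and in the 5 gates (panels); bars are 95% counting intervals and dotted lines mark 1.5-fold. Cblb lies past the line in Cd3 cells and in the CD8 and CD4 gates, Malt1 in the CD8 gate, and Themis past the line on the other side in the NK-marker and gamma-delta gates.

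Of 54 other genes of the pathway, 53 had enough UMIs in Cd3 cells, and 1 was called, Sh2d2a, the adaptor TSAd that binds Lck. Over all 12085 genes tested, 14.8% were called. Sh2d2a stood at 488 CPM in the anti-PD1 and 248 CPM in the anti-IgG library, a ratio of 1.97 (1.90 to 2.04). It passed the rule in all 5 gates, with ratios between 1.51 (CD4) and 2.33 (NK-marker). Intervals lay above 1 for 9 pathway genes, below 1 for 24 and included 1 for 20, with a median log2 ratio of -0.08 beside the -0.11 of all genes. Of Malt1's partners, Bcl10 was at 1.39 (1.29 to 1.49) and the ligase Traf6 at 1.30 (1.15 to 1.48). Cbl, the relative of Cblb, was at 0.773 (0.728 to 0.822), on the other side of 1, and Ptpn11, the relative of Ptpn6, at 0.943 (0.866 to 1.03). Of the receptor's signalling chains, Cd3e was at 0.997 (0.978 to 1.02), Cd3d at 1.00 (0.984 to 1.03), Cd3g at 0.957 (0.938 to 0.977) and Cd247 at 0.945 (0.912 to 0.978).

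In the gamma-delta gate, 7 of the 50 pathway genes tested were called higher and 11 lower than in the CD4 gate, where 9.97% of all genes were called higher and 5.47% lower. The receptor chain Cd3g was 1.70-fold higher in the anti-PD1 and 1.602-fold in the anti-IgG library, and Cd247, whose tail holds docking sites of Zap70, 1.87-fold higher in anti-PD1 and 1.98-fold in anti-IgG. The lymphocyte receptor Cd5 was 0.228 of its CD4 level in the anti-PD1 and 0.298 in the anti-IgG library. Cd6, the kinases Txk and Prkcq and the adaptors Fyb, Skap1 and Sh2d1a were called lower as well, as Lck was. Of the same 50 genes, 1 was called higher and 3 lower in the CD8 gate, where 2.13% of all genes were higher and 3.32% lower. In the Foxp3 gate 4 were called higher and 4 lower, where 7.81% of all genes were higher and 2.52% lower. In the NK-marker gate 5 were called higher and 8 lower, where 3.82% of all genes were higher and 2.94% lower.

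For each member the most alike genes were found by Pearson r of log2(CPM + 1) over 10 values (5 gates in 2 libraries, so that values of 1 library share its depth) among 9575 genes, as a description. Lck lay closest to Peli1, Sh2d1a and Atp11b, with r between 0.969 and 0.973. Zap70 lay closest to Notch2 (r 0.991), Abi3bp and Clasp2. Lat was closest to Plcg1 (r 0.969), Ifngr2 and Hipk3, and Lcp2 to Tiam1 (r 0.977), Hif1a and Slc4a7. Themis was closest to Ms4a6b (r 0.971), Als2cl and Klf2, and Malt1 to Drosha (r 0.958), Kdm5b and Stat5a. Cblb was closest to Zfand2a (r 0.951), Mob4 and Srsf5. Ptpn22 was closest to Arsb (r 0.976), Tbx21 and Reck, and Ptpn6 to Atp8b4 (r 0.961), Mgat4a and Dpy19l1.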

How the data were processed

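Hearts were digested and single cells profiled with a droplet 3′ kit, per the labels' protocols. The deposited files hold UMI counts for each gene in each barcode, not normalized by the authors. Their headers name Cell Ranger 7.1.0, whereas Cell Ranger 7.2.0, Seurat 4.4.0 and mm10 stand in the submitters' processing notes. No source used here states the annotation, and 52081 of 55357 gene IDs matched GENCODE.

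Barcodes stayed in with 300 or more genes, 500 or more UMIs and a mitochondrial share of 10% or less. Gates were exclusive, in the order NK-marker (at least 2 of Ncr1, Klrb1c, Klra4, Klra7, Klra8 and Klre1), gamma-delta (Cd3 cell with at least 2 UMIs of Trdc, Trdv4 or Trgv6), Foxp3, CD8 (Cd8a or Cd8b1 and no Cd4) and CD4 (the converse). Cells with markers of other types were left out of the gates: B at least 2 of 3 markers, and macrophage, fibroblast and endothelial at least 3 of 6. Scrublet in scanpy 1.11.5 marked 4 anti-PD1 and 0 anti-IgG cells, so it did not work and doublets were kept. The alternative removed the 291 anti-PD1 and 153 anti-IgG cells that scored highest.

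UMIs were summed per gate and library. Ratios have exact 95% intervals conditional on the summed UMIs, and shares exact Clopper-Pearson 95% intervals. A count of 0 was given a floor of 3 counts. Calls used all genes with at least 50 summed UMIs and a ratio past 1.5 either way. The steps were tested on simulated data. Software was Python 3.11.15, numpy 2.4.6, scipy 1.17.1, pandas 2.3.3 and matplotlib 3.10.9. The text names all 9 members, each of 54 listed pathway genes past 1.5-fold in Cd3 cells, and the 3 genes most like each member; other pathway genes were named after their values were seen. Some listed genes, and a split of cells by further markers, are not reported here. Members and lists were chosen with earlier results of these data known. Alternatives were a minimum of 1000 genes per cell, doublet removal, 2 UMIs to enter a gate, thinning to 1000 UMIs, other totals, centring, equal weight per cell, keeping cells with other markers, at least 200 summed UMIs and an equal gate mix. Promoters and motifs came from the RefSeq table of GRCm38.p6; none is shown for Malt1. Columns of other series numbered 0.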

Additional observations from a re-analysis of the deposited data

Results flagged for a closer look

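Lck differed in direction between gates. Its anti-PD1 over anti-IgG ratio was 1.07 in the CD8 gate, where the counting interval lay above 1 (1.02 to 1.13), and 0.773 in the gamma-delta gate, where the interval lay below 1 (0.680 to 0.878). The difference between the gates was not tested, since each group is 1 library. With cells thinned to 1000 UMIs the ratios were 1.01 in the CD8 gate and 0.946 in the gamma-delta gate. Without the highest-scoring doublets the gamma-delta ratio was 0.662. Within gamma-delta cells with Trdv4 or Trgv6 it was 0.837 (0.709 to 0.988), and in the other gamma-delta cells 0.985 (0.803 to 1.21). Cells with Trdv4 or Trgv6 numbered 681 of 749 in the anti-PD1 gate and 323 of 371 in the anti-IgG gate.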

How the results depend on the processing

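Over 441 recomputed member ratios, 393 moved by less than their interval, 48 moved beyond it, and 0 called ratios changed direction. The count of members called in Cd3 cells (1) became 2, Themis joining Cblb, when ribosomal and mitochondrial UMIs left the totals and when cells with markers of other types were kept. The count of pathway genes (1, Sh2d2a) became 3 with thinned cells and 3 with an equal gate mix, and 2 with the other totals, with centring on the median gene and with each cell weighted alike. Calls against the CD4 gate (10) ranged between 8 and 11. Centring raised the share of higher genes among all calls in Cd3 cells to 53.7%, against 38.1% without it.

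Cblb stayed called in Cd3 cells in 9 of 9 alternatives (1.56 to 1.70) and in the CD4 gate in 8 of 8 (1.90 to 2.15), but in the CD8 gate in 4 of 8 (lowest 1.42, thinned). In the Foxp3 gate its thinned ratio was 0.782, on the other side of 1. Malt1 stayed called in the CD8 gate in 8 of 8. Themis ranged between 0.281 and 0.411 in the NK-marker gate, called in 7 of 8, and between 0.349 (doublets left out) and 0.993 (thinned) in the gamma-delta gate, called in 6 of 8. No paired analysis was possible because each group is 1 library with no replicate number, and no replicate could be left out. Depth limits Themis most, with 33 UMIs in the anti-PD1 NK-marker gate.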
